A study of Mus musculus with 6 samples.

Results

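The 10 genes described here, Kdr, Flt1, Tek, Tie1, Pecam1, Cdh5, Sox17, Sox18, Emcn and Vwf, are markers of blood vessel endothelium, and they were taken by name from a table of 49671 genes measured in mouse testis. All 10 matched 1 row each by Ensembl identifier. RNA from the whole testis of 12-day-old C57BL/6J males was sequenced, 3 libraries being Ankrd31-/- (knockout) and 3 Ankrd31+/+ (wild type), and no treatment is named for either group. The design compared the juvenile testis transcriptome with and without Ankrd31, whose ankyrin-repeat product belongs to the system that places the DNA breaks of meiosis. The labels do not say how the allele was made or which exons it removes, and nothing in the labels ties libraries to litters. Totals were 21014060 to 22706296 counts per library, and each of the 10 genes had between 69 and 1754 counts in every library.

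Endothelial cells line the vessels that run between the seminiferous tubules, where they lie beside Leydig cells, macrophages and stromal cells. They are recognised by receptor tyrosine kinases for vascular endothelial growth factors (VEGFs) and angiopoietins, by adhesion molecules of their junctions, and by SOXF transcription factors. VEGF drives the growth of vessels, angiopoietin signalling through TIE receptors stabilises them, and SOX17 and SOX18 take part in endothelial differentiation. All 10 genes are also used in endothelium outside the testis, and several are known from other cells. PECAM1 and VWF are found in platelets, FLT1 and PECAM1 in some macrophages, and SOX17 in the epithelium of the mouse rete testis.

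The VEGF receptor genes Kdr and Flt1 and the angiopoietin receptor gene Tek form the receptor group for which a RefSeq start site lay within a few bases of the gene's start in the deposited table, so the 250 bases before that start are shown for them (GRCm38.p6, 5′ to 3′ on the gene's own strand). Capitals mark the letters GGAA, or TTCC where they stand on the other strand, the core of sites bound by ETS factors, which are known regulators of endothelial genes. The windows are chr5:75978456-75978705 on the minus strand for Kdr, chr5:147726012-147726261 on the minus strand for Flt1 and chr4:94739039-94739288 on the plus strand for Tek.
Kdr: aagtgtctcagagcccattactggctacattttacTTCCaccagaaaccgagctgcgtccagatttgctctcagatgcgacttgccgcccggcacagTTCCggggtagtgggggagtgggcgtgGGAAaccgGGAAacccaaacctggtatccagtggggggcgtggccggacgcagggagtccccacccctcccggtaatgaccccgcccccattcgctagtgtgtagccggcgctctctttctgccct
Flt1: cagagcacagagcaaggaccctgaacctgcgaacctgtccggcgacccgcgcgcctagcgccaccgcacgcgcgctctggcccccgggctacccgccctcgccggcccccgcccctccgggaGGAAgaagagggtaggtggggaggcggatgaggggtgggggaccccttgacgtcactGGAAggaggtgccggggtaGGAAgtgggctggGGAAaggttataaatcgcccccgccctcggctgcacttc
Tek: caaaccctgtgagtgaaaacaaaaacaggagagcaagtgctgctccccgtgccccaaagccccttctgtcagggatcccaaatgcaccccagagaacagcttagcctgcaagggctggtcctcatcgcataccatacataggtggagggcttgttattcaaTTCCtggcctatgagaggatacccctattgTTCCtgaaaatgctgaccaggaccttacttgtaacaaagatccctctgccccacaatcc
The Kdr window held 4 GGAA matches over both strands, the Flt1 window 4 and the Tek window 2. Such matches are common, since 93.4% of 32851 windows of the same length held at least 1 and the median was 3. The letters ACAAT, the core of SOX sites, had 2 matches over both strands in the Tek window and 0 in the Kdr and Flt1 windows, against 27.7% of windows with at least 1, and GATA had 1, 0 and 1 in Kdr, Flt1 and Tek, against 53.6%. A match in so short a motif is a description of the letters and not of a bound site. Of the 10 genes, 5 had a window in the RefSeq table. For Tie1 the RefSeq start lay 212 bases inside the gene as counted, so its window is not shown, and Emcn, outside the receptor group, is not shown either.

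The positions of the genes are those of the deposited table (mm10). Of the receptors, Kdr (ENSMUSG00000062960) spans chr5:75932827-75978458 and Flt1 chr5:147561604-147726011, both on the minus strand, Tek chr4:94739289-94874976 on the plus strand and Tie1 chr4:118471191-118490061 on the minus strand. The transcription factor gene Sox17 (ENSMUSG00000025902) spans chr1:4490931-4497354 and Sox18 chr2:181669836-181671640, both on the minus strand. Cdh5 lies at chr8:104101625-104144511 (plus), Pecam1 at chr11:106654217-106750628 (minus), Emcn at chr3:137341067-137432185 (plus) and Vwf at chr6:125546774-125686679 (plus). All 10 are protein-coding, with 2 merged exons for Sox18 and 56 for Vwf, and counts were summed over all exons of a gene.

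In CPM, which sets the counts of a library against its total adjusted by TMM normalization, Ankrd31 itself was at 40.8, 33.2 and 38.02 CPM in knockout testes, against 84.9, 52.3 and 63.3 CPM in wild-type testes, so each knockout library was below every wild-type library. Its log2 fold change was -0.84 ± 0.17 (SE), with an edgeR adjusted p of 1, and of 0.00505 once the replicate number was added to the fit as a block. With the block, leaving out both libraries numbered 3 ended that call (edgeR adjusted p = 0.316), and DESeq2 called Ankrd31 without the block (adjusted p = 0.00163). The counts cover the whole gene and check the genotype labels only in part.

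None of the 10 genes passed the test between knockout and wild-type testes. The fitted log2 fold change (knockout over wild type) was below 0 for 8 of the 10 and ran from -0.46 for Sox17 to 0.09 for Vwf, with a median of -0.14. Over all 18040 tested genes 52.2% were below 0 and the median was -0.005. In edgeR's quasi-likelihood test 0 of the 10 passed at a Benjamini-Hochberg adjusted p of 0.05 in either direction, where 0% of all tested genes passed, and each of the 10 had an adjusted p of 1. At an unadjusted p under 0.05 there was 1 of the 10, Sox17, on the lower side, against 1.23% of all tested genes, and 0 of the 10 on the higher side, against 0.843%. The tools limma voom and DESeq2 also called 0 of the 10. With the replicate number as a block, which compares libraries of the same number, 0 of the 10 passed and 5 had an unadjusted p under 0.05 on the lower side, namely Kdr, Tie1, Cdh5, Sox17 and Sox18. Over all genes the blocked shares past the adjusted threshold were 0.0111% on the lower side and 0.0333% on the higher side. At an unadjusted p under 0.05 they were 3.89% on the lower side and 3.59% on the higher side, where 0 of the 10 stood. The 10 genes come from the same cells and the same 6 libraries, so these counts are not 10 separate observations. A lower endothelial level was not shown by these tests. If there were one, whole-testis RNA could not tell fewer endothelial cells from less RNA per endothelial cell.

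**Figure D1:**
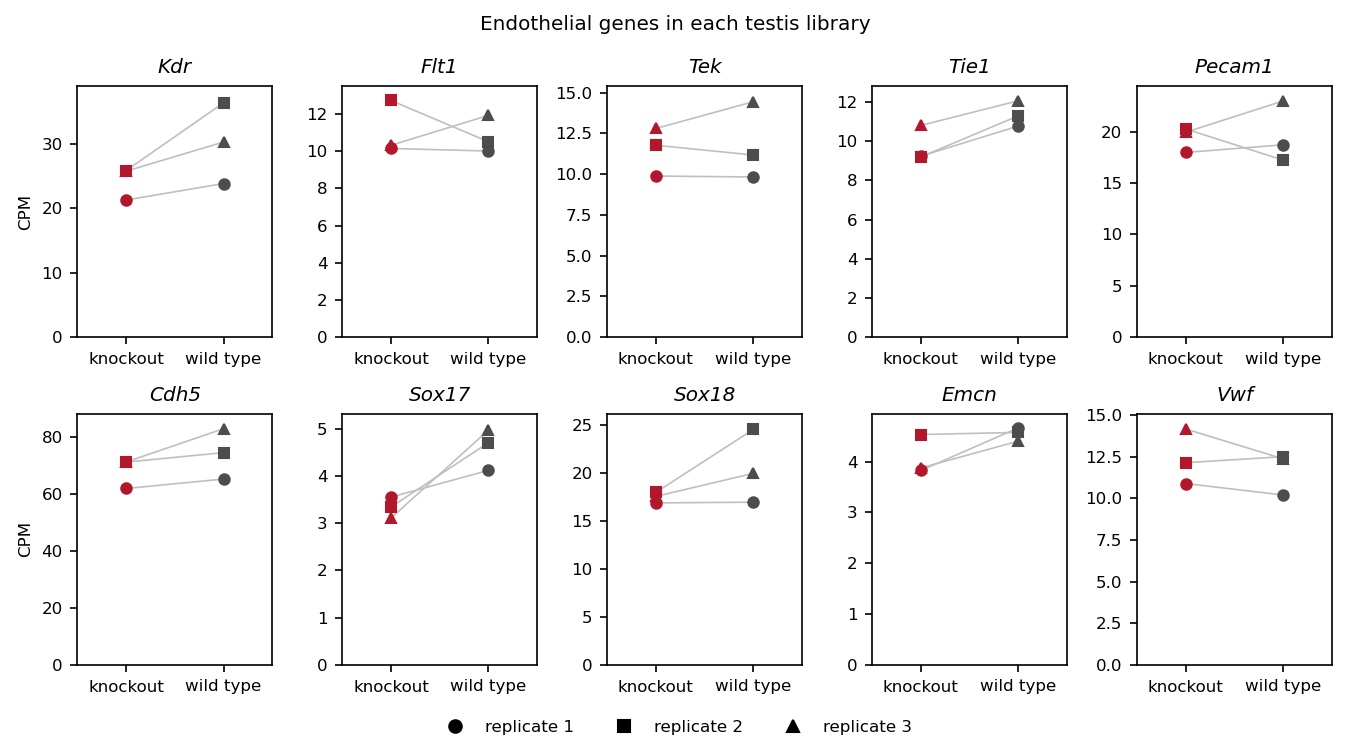
Level of each of the 10 endothelial genes in CPM (vertical axis from 0) in the 3 knockout libraries (left in each panel) and the 3 wild-type libraries (right), with grey lines joining libraries of the same replicate number. Sox17 is the gene whose knockout points all lie below its wild-type points, and for Kdr, Sox18 and Cdh5 wild-type replicate 1 lies within the knockout range.

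Among the receptors, Kdr encodes VEGFR2, the main signalling receptor for VEGF-A in endothelium. It stood at 21.3, 25.8 and 25.7 CPM in knockout replicates 1, 2 and 3, against 23.8, 36.3 and 30.3 CPM in wild-type replicates 1, 2 and 3. Wild-type replicate 1 lay inside the knockout range, and wild-type replicates 2 and 3 lay above all 3 knockout libraries. The means were 24.3 ± 2.61 and 30.1 ± 6.26 CPM in knockout and wild-type testes (SD, n = 3 each). In edgeR the log2 fold change was -0.31 ± 0.15 (SE) and the 95% interval ran from 63.7% to 101.8% of the wild-type level (edgeR unadjusted p = 0.0663). With the replicate block the estimate was -0.30 ± 0.08 with an interval of 72.2% to 91.2%, and Kdr did not pass (edgeR adjusted p = 0.347, unadjusted p = 0.00194). The ratio of knockout to wild-type replicates of the same number was below 1 in 3 of 3 pairs, at -0.16, -0.49 and -0.23 on the log2 scale in pairs 1, 2 and 3. Pair 2 stood apart through wild-type replicate 2, and without that library the estimate was -0.15.

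Flt1, whose protein VEGFR1 binds VEGF-A and in its soluble form acts as a decoy, showed no such order. It had 10.2, 12.7 and 10.3 CPM in knockout replicates 1, 2 and 3, against 10.01, 10.5 and 11.9 CPM in the wild-type replicates. The groups overlapped, with the highest value in a knockout library and the lowest in a wild-type library. Its estimate was 0.03 ± 0.13 (SE) on the log2 scale, with a 95% interval of 83.8% to 125% of the wild-type level. The interval of Kdr, 63.7% to 101.8%, overlapped that of Flt1. A difference between the changes of Kdr and Flt1 was not tested. Counts are per gene, so membrane-bound and soluble Flt1 transcripts are not separated.

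Of the TIE receptors, Tek overlapped fully between genotypes and Tie1 was lower in every pair. Tek encodes TIE2, the receptor for angiopoietins, and had 9.88, 11.8 and 12.8 CPM in knockout testes, against 9.83, 11.2 and 14.4 CPM in wild-type testes. In both genotypes replicate 1 was lowest and replicate 3 highest, and the log2 fold change was -0.04 ± 0.16 (SE, 95% interval 76.2% to 124.2% of wild type). The Tek estimate was 0.14 when wild-type replicate 3 was left out and 0.06 when knockout replicate 1 was, so its sign was set by single libraries. Tie1 encodes TIE1, a receptor with no firmly known ligand of its own that modulates TIE2. It had 9.24, 9.20 and 10.8 CPM in knockout testes, against 10.8, 11.3 and 12.1 CPM in wild-type testes. Knockout replicate 3, at 10.81 CPM, was level with wild-type replicate 1, at 10.78 CPM, and the other 4 libraries separated. The log2 fold change of Tie1 was -0.22 ± 0.12 (SE, edgeR unadjusted p = 0.0836), its interval ran from 71.7% to 102.5% of wild type, and it was lower in 3 of 3 pairs.

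The SOXF transcription factor gene Sox17 had the lowest fold change of the 10. It had 3.55, 3.34 and 3.11 CPM in knockout replicates 1, 2 and 3, against 4.12, 4.71 and 4.97 CPM in wild-type replicates 1, 2 and 3, from 69 to 107 counts per library. Each knockout library was below every wild-type library, which held for 1 of the 10 genes and for 3.5% of all tested genes, while 0 of the 10 and 3.09% of all genes had every knockout library above every wild-type library. The means were 3.33 ± 0.222 CPM in knockout testes and 4.60 ± 0.435 CPM in wild-type testes (SD, n = 3 each), so that the knockout mean was 72.5% of the wild-type mean. The log2 fold change was -0.46 ± 0.15 (SE) with a 95% interval of 57.2% to 92.1% of wild type, an unadjusted p of 0.0133 and an adjusted p of 1 in edgeR. The block left it at -0.46 ± 0.16 (edgeR adjusted p = 0.555). The ratios were -0.21, -0.48 and -0.66 on the log2 scale in pairs 1, 2 and 3, and leaving out any 1 library kept the estimate between -0.54 and -0.40. The spread of Sox17 between replicates, a coefficient of variation of 6.65% in knockout and 9.46% in wild-type testes, was no larger than the counting error of 11.7% and 9.95% that its depth gives.

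Genes of rete and epididymal epithelium, the rete being a known site of Sox17 expression in the mouse, were high in wild-type replicate 3, the library with the highest Sox17. Of 10 genes of a rete and epididymis list, 9 had counts in at least 1 library, and their summed level was 71.5 to 87.6 CPM in knockout testes, against 68.9, 80.1 and 148.5 CPM in wild-type replicates 2, 1 and 3. Wild-type replicate 2, with the lowest sum of all libraries, had the next highest Sox17, at 4.71 CPM. Epcam gave most of this sum in every library and was not highest in wild-type replicate 3. It had 80.1, 63.7 and 66.1 CPM in knockout testes, against 73.7, 60.7 and 78.3 CPM in wild-type testes. Cdh16, a cadherin gene of kidney and duct epithelia, had 0, 0.870 and 0.946 CPM in knockout replicates 1, 2 and 3, against 0.634, 0.396 and 11.5 CPM in wild-type replicates 1, 2 and 3. Pax8, a transcription factor gene of duct epithelia, had 1.82, 2.52 and 2.30 CPM in knockout testes, against 1.90, 3.21 and 5.35 CPM in wild-type testes. The epididymal secretory gene Crisp1 had 29.7 CPM in wild-type replicate 3 and 2.88 CPM or less in the other 5 libraries, and Lcn9 had 0 counts in all 6. Without wild-type replicate 3, in a fit with 2 wild-type libraries, Sox17 stood at -0.40, and with the block and without both libraries numbered 3 it stood at -0.35. A part of rete or epididymal cells in the Sox17 values was not tested.

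Sox18, the other SOXF gene of the set, had 16.9, 18.0 and 17.5 CPM in knockout testes, against 16.9, 24.5 and 19.9 CPM in wild-type testes. The first libraries of each genotype were level, and wild-type replicate 2 was the highest. For Sox18 the log2 fold change was -0.23 ± 0.13 (SE, 95% interval 69.9% to 103.9% of wild type, edgeR unadjusted p = 0.103). Without wild-type replicate 2 it was -0.08. The profile of Sox18 across the 6 libraries was closest to that of Kdr among the members (Pearson r = 0.96 over 6 libraries, the highest of 45 pairs of members), a likeness that includes the high value of both genes in wild-type replicate 2.

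**Figure D2:**
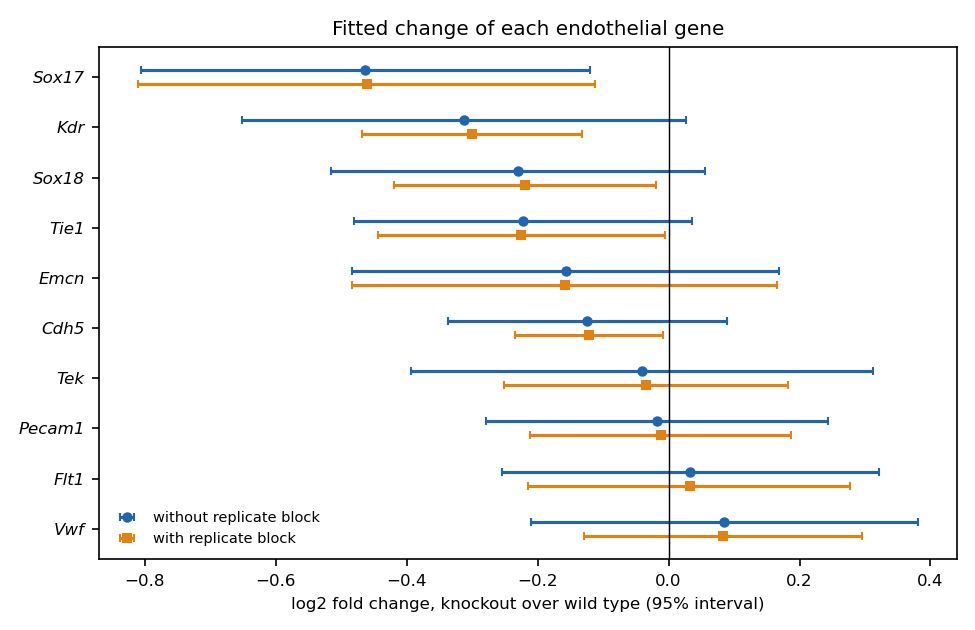
Fitted log2 fold change (knockout over wild type) of each of the 10 genes with its 95% interval, without the replicate block (circles) and with it (squares). The interval of Sox17 lies below 0 in both fits, those of Kdr, Sox18, Tie1 and Cdh5 with the block alone, and none of the 10 passed after adjustment over all genes.

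Of the junction and adhesion genes, Cdh5 encodes VE-cadherin, the adhesive cadherin of endothelial junctions, and was the most counted of the 10. It had 62.0, 71.3 and 71.3 CPM in knockout testes, against 65.3, 74.6 and 83.04 CPM in wild-type testes. Each pair had the knockout library lower, at -0.08, -0.07 and -0.22 on the log2 scale, while the groups as a whole overlapped. Fitted over all libraries, Cdh5 stood at -0.12 ± 0.10 (SE), with an interval of 79.2% to 106.4% of wild type. The block gave -0.12 ± 0.05 and 85.04% to 99.46% (edgeR adjusted p = 0.633). Leaving out wild-type replicate 3 gave -0.03, and leaving out knockout replicate 1 gave -0.06.

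Pecam1, which encodes the junctional adhesion molecule CD31, had 18.0, 20.3 and 19.96 CPM in knockout testes, against 18.7, 17.2 and 23.01 CPM in wild-type testes. Both the highest and the lowest value were in wild-type libraries, and the estimate was -0.02 ± 0.12 (SE, 95% interval 82.4% to 118.4% of wild type). Emcn encodes endomucin, a sialomucin of capillary and venous endothelium, and had 3.83, 4.53 and 3.88 CPM in knockout testes, against 4.66, 4.57 and 4.40 CPM in wild-type testes. Knockout replicate 2 lay inside the wild-type range and the other 2 knockout libraries below it. Its log2 fold change was -0.16 ± 0.15 (SE, 95% interval 71.5% to 112.4%). Counting error alone gives Emcn a coefficient of variation of 10.6% in knockout testes, above the observed 9.69%.

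Vwf encodes von Willebrand factor, the clotting protein that endothelial cells store and release. It had 10.9, 12.1 and 14.2 CPM in knockout testes, against 10.2, 12.5 and 12.4 CPM in wild-type testes. It had the highest fold change of the 10 and one of 2 above 0, the other being Flt1, at 0.09 ± 0.13 (SE, 95% interval 86.5% to 130.2% of wild type). The sign depended on single libraries, since the estimate was -0.02 without knockout replicate 3. PF4 and other platelet proteins come with VWF in platelets, and Pf4 had 7.15, 9.48 and 5.63 CPM in knockout testes, against 6.29, 7.30 and 7.39 CPM in wild-type testes. The platelet integrin gene Itga2b had 1.59, 0.962 and 1.76 CPM in knockout testes, against 1.40, 1.72 and 1.28 CPM in wild-type testes. Of 7 platelet and megakaryocyte genes, 2 passed the filter on low counts, Gp9 had 0 counts in all 6 libraries, and the summed level was 7.88 to 10.9 CPM in knockout and 8.20 to 9.24 CPM in wild-type testes.

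Levels between genes were compared as CPM per kilobase of exon. Cdh5 was highest at 16.2 ± 1.28 in knockout and 17.7 ± 2.11 CPM per kb in wild-type testes (SD, n = 3 each), and Sox18 came next at 10.8 ± 0.343 and 12.6 ± 2.35. In the group below, Pecam1 had 3.12 ± 0.200 CPM per kb in knockout and 3.16 ± 0.480 in wild-type testes, Kdr 2.69 ± 0.288 and 3.34 ± 0.693, Tek 2.44 ± 0.314 and 2.51 ± 0.504, and Tie1 1.98 ± 0.187 and 2.32 ± 0.133. Pecam1 overlapped Kdr in range, Kdr overlapped Tek and Tek overlapped Tie1, while Tie1 lay above Sox17 in all 6 libraries. The lowest 4 were Sox17, Flt1, Emcn and Vwf, between 0.634 and 1.04 CPM per kb over all libraries, and their order could not be told apart, with Sox17 above Flt1 in 3 of 6 libraries. Exon length counts every annotated exon of a gene, so a gene with unused exons is placed too low on this scale.

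**Figure D3:**
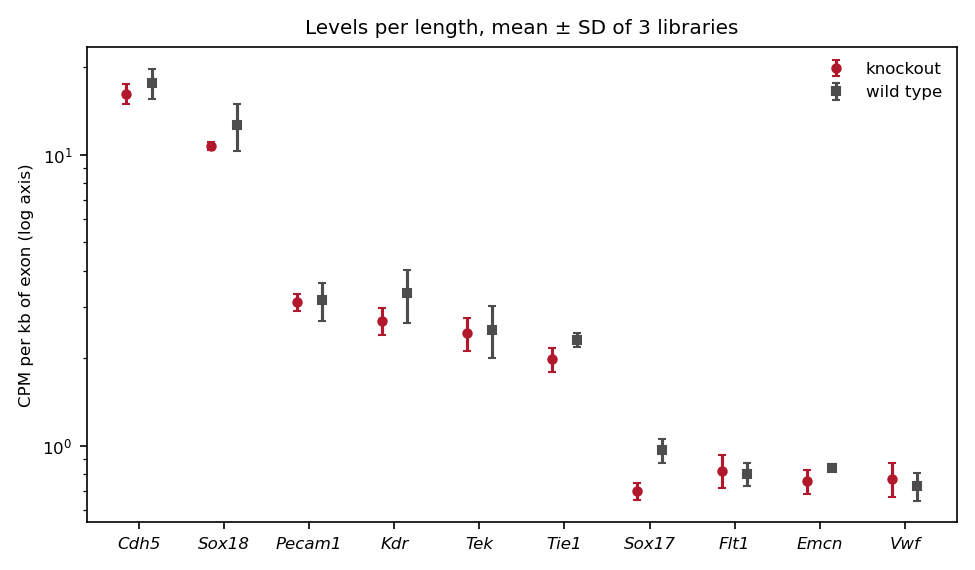
Level per exon length (CPM per kb, log axis) of the 10 genes in knockout (circles, left of each pair) and wild-type testes (squares, right), as mean and SD of 3 libraries, ordered by the mean over all 6 libraries. Cdh5 and Sox18 lie above 10 CPM per kb and Sox17, Flt1, Emcn and Vwf near or below 1.

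The summed level of the 10 genes was 165.7, 189.1 and 189.6 CPM in knockout replicates 1, 2 and 3, against 174.4, 207.4 and 216.4 CPM in wild-type replicates 1, 2 and 3. Replicate 1 was the lowest library of both genotypes, and within each pair the knockout library was the lower one. The knockout library was lower in 3 of 3 pairs for 6 genes, namely Kdr, Tie1, Cdh5, Sox17, Sox18 and Emcn, against 14.7% of all tested genes, and higher in 3 of 3 pairs for 0, against 13.9%. The median log2 ratio of the 10 was -0.07, -0.05 and -0.19 in pairs 1, 2 and 3. Of the 45 correlations between members over the 6 libraries, 40 were above 0, with a median Pearson r of 0.47, from -0.30 for Emcn and Vwf to 0.96 for Kdr and Sox18. These values describe 6 libraries in which all genes share depth and scaling, and no background over other genes was computed for them.

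Set against Cdh5 in the same library, a ratio chosen after the values were seen, 3 genes had groups that did not overlap. Sox17 was 5.73%, 4.69% and 4.36% of the Cdh5 level in knockout replicates 1, 2 and 3, against 6.31%, 6.31% and 5.99% in wild-type replicates 1, 2 and 3. Kdr was 34.3%, 36.2% and 36.1% of Cdh5 in knockout testes, against 36.5%, 48.7% and 36.4% in wild-type testes, so that its groups were separated by a margin of under 1 percentage point. Over all tested genes, 0.926% had a ratio to Cdh5 that was lower in all 3 knockout libraries than in any wild-type one. Vwf was higher, at 17.6%, 17.0% and 19.8% of Cdh5 in knockout testes, against 15.6%, 16.7% and 14.9% in wild-type testes, a direction of separation that 4.42% of all tested genes shared. Cdh5, the divisor, was itself lower in the knockout in 3 of 3 pairs, which raises knockout ratios to it, and Vwf in CPM overlapped between genotypes. For the remaining 6 genes the ratios overlapped between genotypes.

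The ligands of these receptors gave mostly values below 0, and none of the 8 passed the test with or without the block. The VEGF and angiopoietin list had 7 of 8 genes below 0 with a median log2 fold change of -0.20, where 52.2% of all tested genes were below 0. Over all tested genes 0% passed without the block, and 0.0111% on the lower and 0.0333% on the higher side passed with it. Angpt2, which encodes the angiopoietin that antagonises TIE2 in remodelling vessels, had 4.74, 5.27 and 5.54 CPM in knockout testes, against 6.34, 7.04 and 6.58 CPM in wild-type testes. Its groups did not overlap, and 3.5% of all tested genes likewise had every knockout library below every wild-type library. For Angpt2 the log2 fold change was -0.36 ± 0.13 (SE, edgeR unadjusted p = 0.0219, adjusted p = 1, and adjusted p = 0.567 with the block). Angpt4, from 12 to 33 counts per library, lay at 0.546, 0.595 and 0.586 CPM in knockout testes, against 0.860, 0.572 and 1.56 CPM in wild-type testes. Its log2 fold change was -0.78 ± 0.39 (SE) and ran from -1.06 to -0.30 with 1 library left out. Vegfa, which encodes the main ligand of KDR, had 20.8, 17.6 and 17.2 CPM in knockout testes, against 21.5, 21.8 and 17.8 CPM in wild-type testes, with -0.14 ± 0.11 (SE). Angpt1, which encodes the activating ligand of TIE2, stood at 0.03 ± 0.24 (SE).

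Other endothelial genes were compared by list, and 0 genes of any of these lists passed in edgeR with or without the block. Over all tested genes 52.2% were below 0. Of 10 other receptors and co-receptors 8 were below 0, with a median log2 fold change of -0.09. The BMP9 receptor gene Acvrl1 had -0.23 ± 0.12 (SE) and the VEGF co-receptor gene Nrp1 -0.17 ± 0.11. Of 10 other endothelial transcription factors 8 were below 0, with a median of -0.10, and Gata2 stood at -0.19 ± 0.13 and the shear-responsive factor gene Klf2 at -0.13 ± 0.10. Sox7, the third SOXF gene, had 1.32, 2.06 and 3.11 CPM in knockout testes, against 1.45, 2.51 and 3.46 CPM in wild-type testes, with replicate 1 lowest and replicate 3 highest in both genotypes. Its log2 fold change was -0.19 ± 0.37 (SE), and -0.19 ± 0.19 with the block (edgeR adjusted p = 0.873), with the knockout library lower in 3 of 3 pairs.

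Surface, junction and secreted proteins were split, with 7 of 12 tested genes below 0 and a median of -0.055. The endothelial nitric oxide synthase gene Nos3 had 4.14, 4.49 and 4.06 CPM in knockout testes, against 5.21, 5.23 and 4.69 CPM in wild-type testes. Its groups did not overlap, a separation in this direction that 3.5% of all tested genes shared, and it stood at -0.25 ± 0.14 (SE). The junctional gene Esam had -0.21 ± 0.13, while the capillary fenestral diaphragm gene Plvap stood at 0.01 ± 0.21 and the tight junction gene Cldn5 at -0.03 ± 0.18. Of 10 arterial and tip cell genes 3 were below 0 and 7 above, with a median of 0.08, where 52.2% of all tested genes were below 0. In that list the Notch target Hey1 stood at 0.27 ± 0.14 (edgeR unadjusted p = 0.0748, and adjusted p = 0.494 with the block). Hey1 is also made outside endothelium. The gap junction gene Gja4 had 5.28, 4.95 and 3.92 CPM in knockout testes, against 5.71, 5.63 and 5.92 CPM in wild-type testes. Every knockout library was thus below every wild-type library, as for 3.5% of all tested genes, and Gja4 stood at -0.29 ± 0.15. The Notch ligand gene Dll4 stood at 0.02 ± 0.19.

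All 8 venous and lymphatic genes matched to 1 row were below 0, with a median of -0.14, where 52.2% of all tested genes were below 0. Their wild-type means ran from 1.43 CPM for the lymphatic gene Prox1 to 100.4 CPM for Pdpn, and Prox1 stood at -0.055 ± 0.42 (SE). The cells that made these transcripts were not separated. Nr2f2, a venous identity factor gene that interstitial stroma also makes, had 68.3, 78.8 and 84.9 CPM in knockout testes, against 79.9, 92.1 and 92.7 CPM in wild-type testes. The log2 fold change of Nr2f2 was -0.19 ± 0.09 (SE, edgeR unadjusted p = 0.0651, and adjusted p = 0.316 with the block), and Reln, an extracellular matrix glycoprotein gene, had -0.20 ± 0.13. Among lymphatic genes, Lyve1 had 1.78, 2.93 and 3.47 CPM in knockout testes, against 1.72, 1.54 and 5.78 CPM in wild-type testes, and Mmrn1, from the surface and secreted list, 0.137, 1.15 and 3.47 CPM against 0.226, 0.220 and 5.16 CPM. Both were highest in wild-type replicate 3 and next highest in knockout replicate 3. Prox1 was level in those libraries, at 2.08 and 2.07 CPM. Wild-type replicate 3 also had the highest rete and epididymis genes, and a link was not tested.

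Pericyte and vascular smooth muscle genes had 5 of 11 below 0 and a median of 0.002. Notch3, which encodes the Notch receptor of mural cells, stood at -0.26 ± 0.12 (SE, edgeR unadjusted p = 0.0551, and adjusted p = 0.505 with the block) and the PDGF receptor gene Pdgfrb at -0.23 ± 0.13. The pericyte gene Rgs5 had 50.5, 58.2 and 50.5 CPM in knockout testes, against 51.9, 51.8 and 52.5 CPM in wild-type testes. Contractile genes of this list are shared with peritubular myoid cells, and Acta2 stood at 0.00 ± 0.07.

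**Figure D4:**
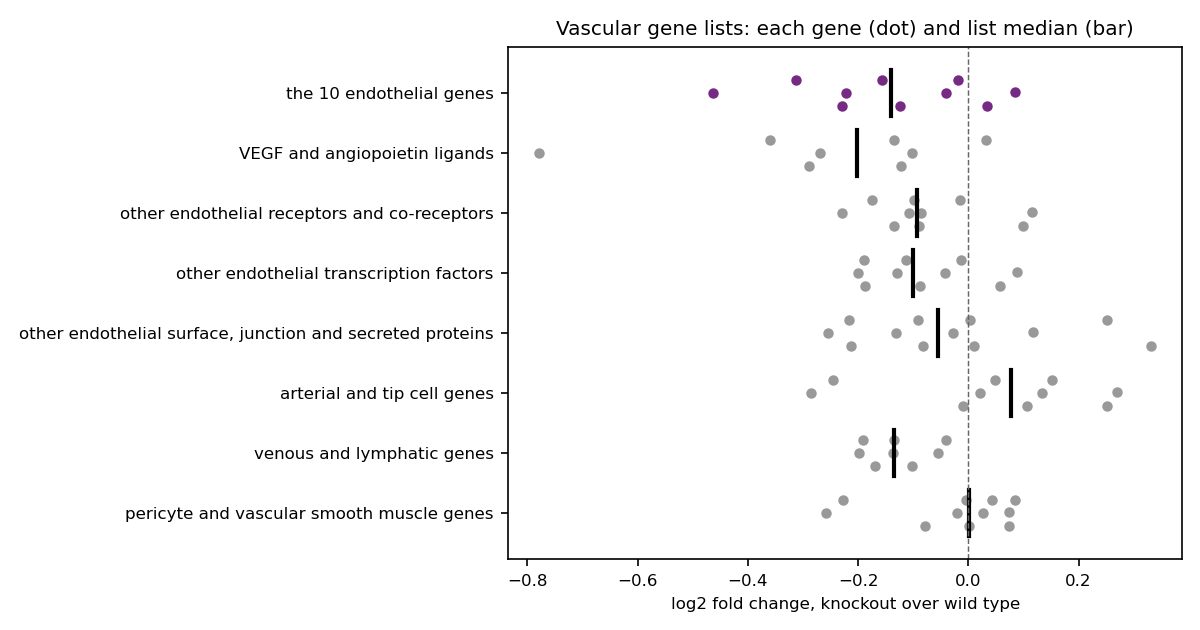
Log2 fold change (knockout over wild type) of each tested gene in 8 vascular gene lists (dots, spread vertically for legibility) with the median of each list (bar). The medians run from -0.20 for the ligands to 0.08 for arterial and tip cell genes, and no gene shown passed after adjustment over all genes.

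Genes of the neighbouring interstitial and tubule cells were read in the same libraries, and their part in the endothelial values was not tested. Of 7 stroma genes 5 were below 0 with a median log2 fold change of -0.09. Their summed level was 1910, 2077 and 2251 CPM in knockout replicates 1, 2 and 3, against 1843, 2290 and 2477 CPM in wild-type replicates 1, 2 and 3, with replicate 1 lowest in both genotypes, as for the endothelial genes. The collagen gene Col1a1 stood at -0.17 ± 0.11 (SE). The 8 germ cell genes were at 2540, 2063 and 2299 CPM in knockout testes, against 2585, 1838 and 2186 CPM in wild-type testes, with replicate 1 highest in both. Of these, Sycp1 stood at 0.19 ± 0.23 and Zbtb16 at -0.10 ± 0.09.

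Macrophages can make Flt1 and Pecam1, and the 8 macrophage genes were 126.3 to 156.3 CPM in sum in knockout and 107.7 to 151.9 CPM in wild-type testes. In pair 1, where the log2 ratios of Flt1 and Pecam1 were 0.02 and -0.06, the macrophage sum was 139.9 CPM in knockout and 128.6 CPM in wild-type replicate 1. In pair 2, where Flt1 and Pecam1 were higher in the knockout library by 0.27 and 0.23 on the log2 scale, the macrophage sum was 156.3 CPM in knockout and 107.7 CPM in wild-type replicate 2. In pair 3, where both were lower in the knockout library by log2 ratios of -0.21 and -0.20, the macrophage sum was 126.3 CPM in knockout and 151.9 CPM in wild-type replicate 3. Tek (0.01, 0.08 and -0.17) and Cdh5 (-0.08, -0.07 and -0.22) had the same order, with pair 2 highest and pair 3 lowest. The other endothelial genes of the set did not. A macrophage part in Flt1 or Pecam1 was not tested. Of the 8 macrophage genes 7 were above 0, with Csf1r at 0.13 ± 0.10 and Mrc1 at 0.21 ± 0.16 (SE). Leydig cell genes ranged from 253.8 to 765.6 CPM in sum in knockout and from 339.5 to 396.3 CPM in wild-type testes, with Hsd17b3 at -0.58 ± 0.24 and Star at 1.55 ± 0.83. With 1 library left out these ran from -0.76 to -0.30 for Hsd17b3 and from 0.78 to 2.03 for Star, which had 22.98, 96.7 and 187.7 CPM in knockout replicates 3, 1 and 2 and at most 43.2 CPM in wild-type testes. Erythroid genes summed to 60.2 to 69.0 CPM in knockout and 59.3 to 95.8 CPM in wild-type testes, highest in wild-type replicate 2, where Kdr and Sox18 were also highest. Of 7 erythroid genes 5 were tested and all 5 were below 0, including Hbb-bt at -0.32 ± 0.19 and Hbb-bs at -0.18 ± 0.19. Sertoli genes had 5 of 8 below 0 and a median of -0.045, with Amh at -0.30 ± 0.21 and Cldn11 at 0.10 ± 0.07. Amh had 198.9, 226.7 and 184.3 CPM in knockout testes, against 218.9, 335.5 and 198.5 CPM in wild-type testes, and with 1 library left out its estimate ran from -0.44 to -0.04. The share of mitochondrial counts was 1.94% to 2.01% in knockout and 1.47% to 1.81% in wild-type testes.

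**Figure D5:**
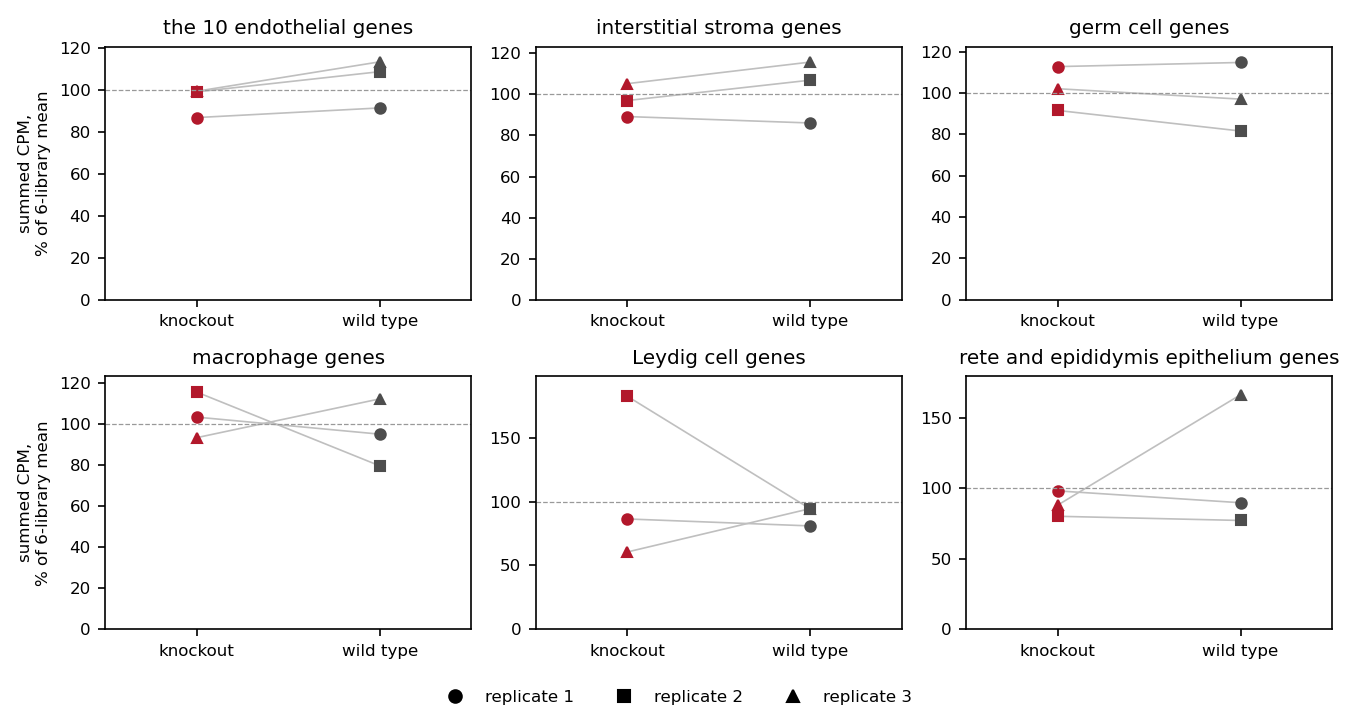
Summed level of 6 gene lists in each library, as a percentage of the mean of that list over the 6 libraries (dashed line), in knockout (left) and wild-type (right) testes with grey lines joining the same replicate number. Endothelial and stroma genes are lowest in replicate 1 of both genotypes, germ cell genes are highest there, and rete and epididymis genes reach 166.5% in wild-type replicate 3. Most of the rete and epididymis sum is Epcam, which is not highest in that library.

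The genes whose profile over the 6 libraries was most like the mean standardised profile of the 10 were Igdcc4, 6530402F18Rik, Lhx9, Pcdhga7 and Ttll1, chosen as the 5 highest of 18030 genes compared. Their Pearson r was 0.997, 0.997, 0.996, 0.996 and 0.994 over 6 libraries. Igdcc4, an immunoglobulin superfamily gene, had 40.9, 49.3 and 48.1 CPM in knockout testes, against 45.3, 55.1 and 61.6 CPM in wild-type testes. Lhx9, a LIM homeobox gene needed for gonad formation in the mouse, had 9.43, 12.6 and 12.2 CPM in knockout testes, against 11.4, 14.5 and 17.3 CPM in wild-type testes. Both were lowest in knockout replicate 1 and highest in wild-type replicate 3. Pcdhga7 shares its last exons with its neighbours in the protocadherin cluster, which makes its count uncertain. With 6 points and this many genes compared, these values of r describe the choice of genes and carry no test.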

How the data were processed

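Raw counts of reads for each gene, as the authors deposited them, were used for 3 knockout and 3 wild-type whole-testis libraries, with exon lengths per the file headers. The build mm10, GSNAP and featureCounts 1.6.0 are named per the submitters' processing notes, and libraries were strand-specific per the labels' protocols; for the strand setting and the handling of multiply matching reads, nothing is stated in the sources used here. Spike-in rows were left out. Of 49671 gene rows 49412 matched GENCODE M21, which gave symbols. Of genes overlapping the 10, Gm29682 at Cdh5 had at most 5 counts and Gm37587 at Sox17 had 0. Ccl21a matched no single row.

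Counts were fitted with edgeR 4.0.16 under R 4.3.3 (TMM, filterByExpr, robust quasi-likelihood F test, two-sided) over 18040 genes, with Benjamini-Hochberg adjustment over all of them. On simulated counts with 200 changed genes, the fit without the block recovered 58.2% of 1.5-fold and 93.9% of 4-fold changes. False calls there numbered 18 without the block and 24 with it. No pairs were simulated, so the block was not checked on paired counts. Pair ratios are differences of log2 CPM with a prior count of 2. No library repeated another (chi-square of 7.35 to 12.96 per degree of freedom between replicates). After subtraction of the genotype means, same-number libraries correlated at 0.42, 0.26 and 0.28 over genes, above the limit of 0.1 for pairing, and others at -0.29 to 0.02. The running numbers that end the sample titles also place same-number libraries next to each other. The numbers pair libraries by these hints alone. P-values set the genotype difference against the spread between these libraries. With the block they set it against the spread of that difference between pairs. Alternatives were other normalizations and filters, DESeq2 1.42.0, limma 3.58.1 voom, a GC correction and left-out libraries. Promoters are from RefSeq (GRCm38.p6).

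The genes and lists were chosen with earlier results of these data known. The rule for named genes took the 10, Ankrd31, any list gene past the threshold of 0.05 with or without the block, and the 2 with the smallest unadjusted p of each list. It also took the 5 genes most like the 10, and defining markers of other cell types beside a result they touch. Vegfa, Angpt1, Sox7, Plvap, Cldn5, Dll4, Lyve1, Mmrn1, Prox1, Pdpn, Rgs5, Acta2, Gp9, Epcam, Crisp1 and Lcn9 were named after their values were seen. One stroma gene that the rule took is not reported here.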

Additional observations from a re-analysis of the deposited data

How the results depend on the processing

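Under all 21 alternatives 0 of the 10 genes passed, and the median log2 fold change of the 10 stayed below 0, at -0.16 to -0.13 under other normalizations, filters, tools, the GC correction and the block. The number of the 10 below 0 was 8 under those alternatives. Leaving out 1 library gave 6 to 10 below 0 and a median of -0.18 to -0.09, where 6 came without wild-type replicate 3 or knockout replicate 1. Leaving out a pair with the block gave 6 to 9. Kdr, Tie1, Cdh5, Sox17, Sox18 and Emcn stayed below 0 under all 21, and Sox17 ran from -0.58 to -0.35. With 1 library left out, signs turned, from values near 0, for Flt1 (-0.07 to 0.12; below 0 for knockout replicate 2 or wild-type replicate 1), Tek (-0.16 to 0.14) and Pecam1 (-0.10 to 0.12; both above 0 for knockout replicate 1 or wild-type replicate 3) and Vwf (-0.02 to 0.17; below 0 for knockout replicate 3 or wild-type replicate 1). With the block, Pecam1 was 0.013 without pair 1 and 0.089 without pair 3, Flt1 -0.096 without pair 2 and Tek 0.043 without pair 3. Over all genes edgeR called 0 without the block and with any 1 library left out, 8 with the replicate block, 1 without a count filter and 6 with the GC correction and the block, and with the block 63 without pair 1, 57 without pair 2 and 0 without pair 3. DESeq2 called 2, and 14 with the block, and limma voom 8 with the block. In edgeR the block changed the call of Ankrd31 and of no other gene described, and in limma voom that of Ankrd31 and of none of the 10. At 69 to 107 counts, depth limits Sox17 and Emcn most.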
